A study of Danio rerio with 6 samples.

Results

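The interferon regulatory factors (IRFs) are a family of transcription factors, and 11 of their genes are described here in zebrafish proximal intestine, among 12398 gene rows kept. They were taken from the rows whose gene name begins with irf and a digit. Of 15 such rows described, the other 4, *irf2bp1*, *irf2bp2a*, *irf2bp2b* and *irf2bpl*, encode proteins that bind IRF2 and are not IRFs, so they are described apart. All 11 IRF genes had enough reads to be tested. The genes *irf4b* and *irf4l*, which the RefSeq annotation of the zebrafish assembly GRCz12tu lists, were not analysed here.

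RNA was sequenced from full-thickness S1 intestine, the most proximal segment, of adult male wild-type Ekk zebrafish 2 weeks after surgery. In SBS (short bowel syndrome) fish the S2 and S3 segments had been removed, the distal bowel ligated and the proximal end brought to the body wall as an ostomy, whereas sham fish had a laparotomy with no bowel manipulation. The samples with the most RNA were chosen for sequencing, 3 in each group. The design text of the series speaks of fed and unfed fish instead, and the sample labels, which give SBS and sham, were followed. In all 12488 rows the counts given for SBS replicate 2 were equal to those of SBS replicate 1. Every gene count in these columns was even, as doubled counts would be, whereas 50.2% to 51.0% were even in the other libraries. The counts alone do not tell whether the columns hold replicate 1 or 2, and how they came to be even cannot be told. The study listed fewer mapped reads for SBS replicate 1 than for any other sample, and these columns held the fewest reads on genes. Read numbers from these columns are given as deposited and may overstate depth. The pair was treated as 1 library and is called SBS replicate 1, so 2 SBS libraries, replicates 1 and 3, were set against 3 sham libraries.

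IRFs share an N-terminal DNA-binding domain with a row of conserved tryptophans and bind interferon-stimulated response elements. As background, IRF3 and IRF7 are phosphorylated by the kinases TBK1 and IKKε after microbial nucleic acids or products are sensed, and they then switch on type I interferon genes. IRF9 joins STAT proteins to carry the signal from the interferon receptor, and IRF1 and IRF2 act on interferon-gamma targets such as the antigen presentation genes. IRF8 and IRF4 are best known in blood lineages: in zebrafish embryos *irf8* is needed to form macrophages instead of neutrophils. IRF10 is found in fish and birds.

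The libraries held 20377652 and 38867364 reads on genes in SBS and between 38728394 and 47142289 in sham. Levels are given as CPM, the reads of a gene per 1000000 reads of a library after TMM scaling, which corrects for differences in RNA composition and had factors of 1.502 and 1.33 in SBS against 0.707 to 0.919 in sham. Where genes are compared with each other, RPKM is used, the same value per kilobase of the deposited gene length. Control RNA added to the samples (spike-ins) made up 1.72% and 2.43% of spike-in and gene reads in SBS replicates 1 and 3. In sham its share was 0.663% to 0.81%. Scaling to the spike-ins was not tested. SBS was compared with sham by the quasi-likelihood test of edgeR over all 12381 genes with at least 10 counts, and a call required a Benjamini-Hochberg adjusted p below 0.05 together with a log2 fold change of at least 1.5 in either direction. Of all genes, 4.55% were called, 2.49% higher and 2.06% lower in SBS. Hepatocyte markers stood far above sham in both SBS libraries, with 20 of 22 called and a summed level of 24391 and 5477 CPM in SBS replicates 1 and 3 against 105 to 237 CPM in sham. Absorptive enterocyte markers lay lower, with 11 of 12 below every sham library, where 24.3% of all genes were, and 1, *chia.2*, called. At an unadjusted p under 0.05, 9 were lower, where 13.1% of all genes were. The likelihood ratio test, DESeq2 and RUVg, all described below, called 8, 8 and 7 lower. Their summed level was 9436 and 42587 CPM in SBS replicates 1 and 3 against 101586 to 150425 CPM in sham. In bulk RNA more cells of a type and more RNA per cell cannot be told apart. The part of these tissue differences in any IRF value was not tested.

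Only 1 of the 11 IRF genes, *irf8*, was called higher in SBS and 0 were called lower. An unadjusted p under 0.05 was reached by 6 of them, against 28.9% of all genes: *irf3*, *irf7*, *irf8*, *irf9* and *irf10* were higher, where 15.7% of all genes were, and *irf1a* was lower, where 13.1% were. Both SBS libraries lay above every sham library for 5 IRF genes, *irf5*, *irf7*, *irf8*, *irf9* and *irf10*, where this held for 22.6% of all genes, and below every sham library for *irf1a* alone, where it held for 24.3%. The median log2 fold change of the 11 genes was 0.84, beside 0.00038 over all genes tested. Without TMM scaling the median of all genes moved to 0.82, and 2095 of 12381 genes were called higher, against 308 with it. In that fit 7 IRF genes were called higher, among them *irf1b* at 1.63, *irf5* at 1.64 and *irf9* at 1.70. The small negative values of *irf2a* and *irf4a* became positive.

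**Figure D1:**
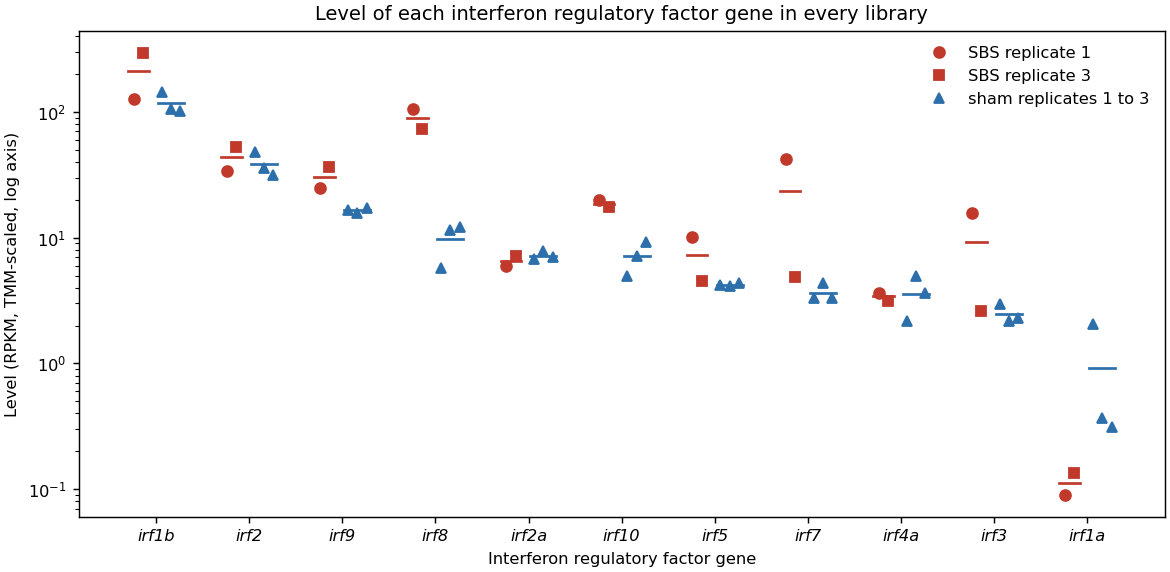
Level of the 11 IRF genes in RPKM on a log axis, in SBS replicate 1 (red circles), SBS replicate 3 (red squares) and the 3 sham libraries (blue triangles), with group means as bars. The irf8 points of both SBS libraries, 105 and 73.3 RPKM, sit far above the sham points at 5.76 to 12.2 RPKM, whereas for irf7, irf3 and irf5 SBS replicate 1 stands apart from the other 4 libraries.

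The gene that passed, *irf8* (ENSDARG00000056407, chromosome 18), is the factor of macrophage and other myeloid lineages. Its level was 181 CPM in SBS replicate 1 and 126 CPM in SBS replicate 3, against 9.93, 19.7 and 20.9 CPM in sham replicates 1, 2 and 3. The groups did not overlap, and the lower SBS value was far above the highest sham value. The mean was 154 ± 38.7 CPM in SBS (SD, n = 2) and 16.9 ± 6.02 CPM in sham (SD, n = 3), a 9.11-fold difference with a log2 fold change of 3.19 (standard error 0.41, 95% interval 2.18 to 4.20, adjusted p = 0.0233, edgeR quasi-likelihood). Other tools, which called more genes in all and made more false calls on simulated counts, also called *irf8* higher. The likelihood ratio test of edgeR (adjusted p = 1.86e-08) called 15.6% of all genes, and 9.81% as higher in SBS. The Wald test of DESeq2 (1.01e-09) called 15.3%, and 9.5% as higher, while a fit with 1 factor of unwanted variation removed as in RUVg (2.28e-10) called 13.6%, and 7.77% as higher. Without SBS replicate 1 the value was 2.91 (adjusted p = 0.0373) and without SBS replicate 3 it was 3.43 (0.00862). Leaving out sham replicate 1, 2 or 3 gave 2.92, 3.36 and 3.40, but the adjusted p was then 0.0812, 0.088 and 0.105 and the call was lost, as it was for every gene: the quasi-likelihood test called 0 genes in each of these fits, although 2214, 2660 and 2442 had an unadjusted p under 0.05.

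Macrophage markers stood higher with *irf8*, and their part in its change was not tested. Of 22 macrophage markers tested, 3 were called higher, where 2.49% of all genes were. In both SBS libraries 16 lay above every sham library, where 22.6% of all genes did, and the median log2 fold change was 2.27. At an unadjusted p under 0.05, 16 were higher, where 15.7% of all genes were. The likelihood ratio test, DESeq2 and RUVg called 15, 16 and 11 higher, where they called 9.81%, 9.5% and 7.77% of all genes higher. The same shares of all genes apply to the lists below. The called markers were *mpeg1.2*, which encodes a perforin-like protein of macrophages (log2 fold change 4.16), the cathepsin S gene *ctss2.2* (2.31) and the granulin gene *grn2* (7.51). A second granulin gene, *grn1* (5.62, adjusted p = 0.0714), and a second cathepsin S gene, *ctss2.1* (3.70, adjusted p = 0.0656), also lay above all sham libraries without passing. The summed marker level was 11009 CPM in SBS replicate 1 and 5549 CPM in SBS replicate 3, against 2845 to 6292 CPM in sham, and much of it came from *cd74a*, *cd74b* and *lgmn*. The invariant chain genes *cd74a* and *cd74b*, which serve MHC class II, had log2 fold changes of 0.15 and -0.53, and *lgmn*, a lysosomal protease, had 1.88. The list held 26 markers, of which these 22 were tested. The macrophage growth factor receptor gene *csf1ra* was at 338 and 24.4 CPM in SBS against 8.27, 15.9 and 12.5 CPM in sham.

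In SBS replicate 3 *irf8* stood further above sham than most of these markers. On the log2 scale it exceeded the sham mean by 2.98 there, where the marker median was 1.04, and exceeded 20 of the 22. In SBS replicate 1 it exceeded that mean by 3.50, the marker median was 2.87, and it exceeded 15 of the 22. General leukocyte markers were at a median of 2.05 in SBS replicate 1, with 0.68 in SBS replicate 3, with 0 of 12 called by the quasi-likelihood test, 8 at an unadjusted p under 0.05 and 4, 5 and 1 called by the likelihood ratio test, DESeq2 and RUVg. Neutrophil markers had medians of 4.53 and 0.82, and 2 of 14 were called higher, the myeloperoxidase gene *mpx* and *cyba*, a subunit of the phagocyte oxidase, with 12 at an unadjusted p under 0.05 and 12, 12 and 6 called higher by the likelihood ratio test, DESeq2 and RUVg. The levels of *mpx* were 286 CPM in SBS replicate 1 and 11098 CPM in SBS replicate 3, against 3.06 to 8.21 CPM in sham. Lymphocyte markers had medians of 0.49 and -0.28, with 0 of 19 called, 2 higher and 2 lower at an unadjusted p under 0.05, and 2 called higher by each other tool. The marker lists, kept as fixed, named doubtful markers, *cd3eap* for lymphocytes and *cpa5* for neutrophils. For macrophages they also named the growth factor genes *il34*, *csf1a* and *csf1b*. What such genes add to the counts and medians was not tested.

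By profile over the 5 libraries, the genes most like *irf8* were *slc26a5*, *zgc:171566* and *anxa2a*. Likeness was the root mean square difference of log2 CPM after centring on the sham mean, and it was 0.31, 0.31 and 0.34. As follows from choosing them by likeness over the same libraries, they were all called higher, with log2 fold changes of 3.13, 3.08 and 2.97. Of these, *slc26a5* encodes an anion transporter family member and *anxa2a* an annexin, a calcium-dependent membrane-binding protein.

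The other lineage factor, *irf4a* (ENSDARG00000006560, chromosome 2), acts in lymphocytes in mammals. Its level was 6.01 and 5.18 CPM in SBS replicates 1 and 3, against 3.55, 8.15 and 6.002 CPM in sham. Both SBS values lay inside the sham range. The log2 fold change was -0.08, with a 95% interval from -1.13 to 0.98 (adjusted p = 0.921 from the quasi-likelihood test), so changes of up to about 1 log2 unit either way were not resolved with these libraries.

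The factors that switch on interferon genes differed between the SBS libraries. For *irf7* (ENSDARG00000045661, chromosome 25), the amplifier of type I interferon, the level was 140 CPM in SBS replicate 1 and 16.0 CPM in SBS replicate 3, against 10.8, 14.5 and 10.8 CPM in sham. SBS replicate 1 stood alone, and SBS replicate 3 was just above the highest sham library. Its fold change on the log2 scale was 2.69 (standard error 0.82, 95% interval 0.68 to 4.70, adjusted p = 0.105), which did not pass. Without SBS replicate 1 it was 0.41 (adjusted p = 0.46), and without SBS replicate 3, where the single SBS library was given the spread of sham, it was 3.54 (adjusted p = 0.00343). The likelihood ratio test (adjusted p = 0.0101) and DESeq2 (0.00745) called *irf7*, while RUVg gave a log2 fold change of 1.12 and did not.

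For *irf3* (ENSDARG00000076251, chromosome 12), which starts the interferon response to viral RNA and DNA, the level was 20.3 CPM in SBS replicate 1 and 3.38 CPM in SBS replicate 3. The sham libraries held 3.82, 2.78 and 2.94 CPM, so that SBS replicate 3 lay inside their range. On the log2 scale the change was 1.89 (standard error 0.71, adjusted p = 0.153), which became 0.09 without SBS replicate 1 and 2.67 without SBS replicate 3 (adjusted p = 0.00757).

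The gene *irf5* (ENSDARG00000045681, chromosome 4) acts downstream of Toll-like receptors and MyD88 in mammals. It was at 25.7 and 11.5 CPM in SBS replicates 1 and 3, against 10.7, 10.5 and 11.1 CPM in sham. The sham libraries were within 1 CPM of each other, and SBS replicate 3 exceeded them by a small margin. The fitted change of 0.79 on the log2 scale (standard error 0.38, adjusted p = 0.231) was 0.10 without SBS replicate 1 and 1.25 without SBS replicate 3. The deposited annotation gives this row the transcript type of a retained intron.

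**Figure D2:**
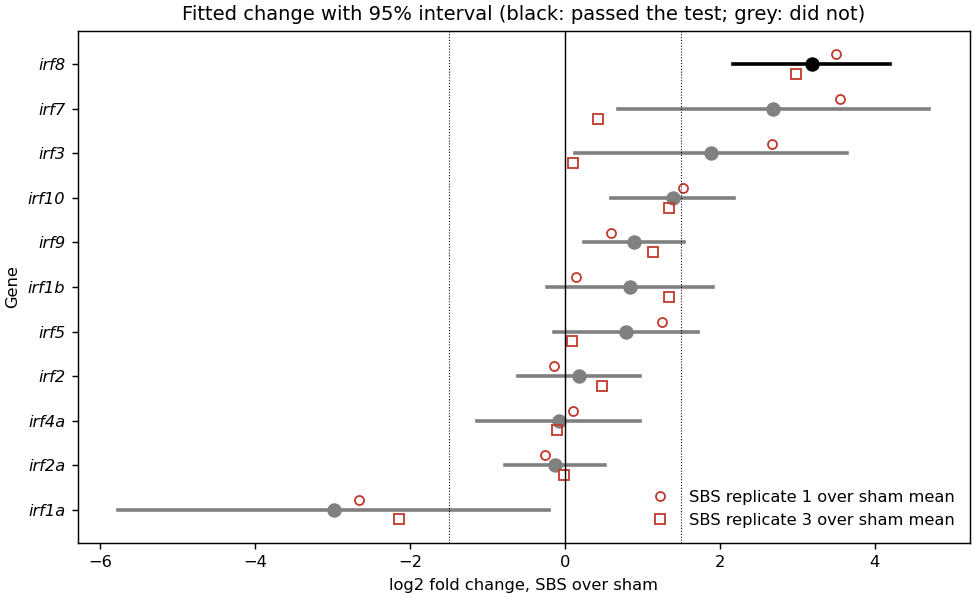
Log2 fold change of SBS over sham for the 11 IRF genes (filled points) with 95% intervals, black for the gene that passed and grey for the others, beside each SBS library's difference from the sham mean (open circles, replicate 1; open squares, replicate 3). Only the interval of irf8, 2.18 to 4.20, lies wholly beyond the dotted line at 1.5, and the open symbols of irf7 and irf3 are farthest apart.

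Between the SBS libraries, *irf7* differed by 3.13, *irf3* by 2.58 and *irf5* by 1.15 on the log2 scale, each higher in SBS replicate 1. A difference of at least 1 in this direction was found for 19.4% of all genes and one of at least 3 for 3.72%. In the other direction, SBS replicate 1 minus SBS replicate 3 was -1.197 for *irf1b*, and 17.5% of all genes were higher in SBS replicate 3 by at least 1. These are differences between single libraries, and no test of them could be made.

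Genes upstream of *irf3* and *irf7* were mostly higher in SBS replicate 1, as were most genes of several other lists. Of 22 sensors and adaptors, 19 were higher in SBS replicate 1 than in SBS replicate 3, where 47.4% of all genes were, with medians of 1.24 and 0.10 above the sham mean, and the median log2 fold change was 0.72. The quasi-likelihood test called 0 of them, with 8 higher and 1 lower at an unadjusted p under 0.05, while the likelihood ratio test and DESeq2 each called 6 higher and RUVg 1. A higher level in SBS replicate 1 than in SBS replicate 3 was not particular to this list. It was found for 18 of 22 macrophage, 12 of 14 neutrophil and 19 of 22 hepatocyte markers and 19 of 20 IRF partner genes. It was found for 2 of 14 MHC class I genes and 0 of 12 absorptive enterocyte markers. The kinase genes that act on *irf3* and *irf7* were *ikbke*, at 24.0 and 20.3 CPM in SBS against 9.32 to 10.3 CPM in sham (log2 fold change 1.196, adjusted p = 0.0521), and *tbk1*, at 161 and 78.6 CPM against 63.2 to 78.8 CPM (0.74, adjusted p = 0.243). The DNA-sensing adaptor *tmem173* (STING) had 9.08 and 6.46 CPM in SBS against 0.291, 1.29 and 0.930 CPM in sham, a log2 fold change of 3.21 (adjusted p = 0.053). Also above all sham libraries in both SBS libraries were *unc93b1*, which carries endosomal Toll-like receptors (1.62), the kinase *irak4* (1.57) and *tank* (1.23), none of which passed. The RNA-sensing adaptor *mavs* went the other way, with 41.4 and 81.0 CPM in SBS against 106 to 135 CPM in sham (log2 fold change -1.02, adjusted p = 0.146), and the ligase gene *trim25* had a value of 0.12.

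Interferon genes themselves had few reads in most libraries. Of 12 interferon and receptor chain genes, 0 were called by the quasi-likelihood test, with 2 higher and 1 lower at an unadjusted p under 0.05, while the likelihood ratio test called 1 higher and 1 lower, DESeq2 1 higher and RUVg 2 higher and 1 lower. The type I interferon gene *ifnphi1* was at 2.16 and 1.71 CPM in SBS against 0.843 to 1.26 CPM in sham (log2 fold change 0.89, adjusted p = 0.253), and *ifnphi2* and *ifnphi3* were under 0.5 CPM in every library. Both SBS libraries lay below all sham libraries for *ifnphi2*, with 0 and 1 reads against 15, 2 and 10 (-4.15, quasi-likelihood adjusted p = 0.135). They lay above for *ifnphi3*, with 6 and 6 reads against 0, 2 and 1 (2.28, adjusted p = 0.253). The interferon-gamma gene *ifng1-2* had 6.21 and 0.349 CPM in SBS against 0.0583, 0.0562 and 0.0900 CPM in sham, where it rested on 2, 2 and 3 reads (adjusted p = 0.0694). Its relative *ifng1-1*, chosen after its values were seen, was high in the other SBS library, with 0.915 CPM in SBS replicate 1 and 12.9 CPM in SBS replicate 3 against 1.05, 2.42 and 1.89 CPM in sham (log2 fold change 1.95, adjusted p = 0.256). The receptor chain genes *crfb6* and *crfb4* had values of 0.67 each, *il10rb* had -0.19 and *crfb17* -0.33.

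The genes by which interferon receptors signal include *irf9* (ENSDARG00000016457, chromosome 12), the DNA-binding partner of STAT proteins. Its level was 45.1 and 65.7 CPM in SBS replicates 1 and 3, against 30.3, 28.3 and 31.2 CPM in sham. The sham libraries were tight and both SBS libraries lay above them, with SBS replicate 3 the higher. This gave a log2 fold change of 0.89 (95% interval 0.24 to 1.53, standard error 0.26, adjusted p = 0.101 by quasi-likelihood), or 1.13 without SBS replicate 1 and 0.59 without SBS replicate 3. DESeq2 gave an adjusted p of 0.0193 and RUVg 0.00392, both under the fold change limit.

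Another gene of this pathway, *stat2*, did not share this order. Its level was 398 and 96.6 CPM in SBS, against 210, 190 and 87.2 CPM in sham (log2 fold change 0.61, adjusted p = 0.587). Among 12 JAK-STAT genes, 2 feedback inhibitors of cytokine receptors were called higher, and the likelihood ratio test, DESeq2 and RUVg called 2, 2 and 4 higher. They were *socs1b*, with 31.5 and 22.1 CPM in SBS against 4.81 to 6.26 CPM in sham (2.24, adjusted p = 0.0233), and *socs3b*, with 241 and 95.8 CPM against 16.3 to 35.6 CPM (2.80, adjusted p = 0.0456). The kinase gene *jak1* (1.11) and *socs1a* (1.22) also lay above all sham libraries without passing, and *stat3* (1.26) and the phosphatase gene *ptpn6* (0.09) overlapped them.

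The list of interferon-stimulated genes held 22 tested genes, of which 3 were called higher and 0 lower, with 12 higher and 0 lower at an unadjusted p under 0.05. Whether any IRF acts on them in this tissue was not tested. The likelihood ratio test, DESeq2 and RUVg called 11, 12 and 8 of them higher and 0 lower. The median log2 fold change of the list was 2.30, or 0.31 without SBS replicate 1 and 2.38 without SBS replicate 3. Of the 22 genes, 20 lay above every sham library in SBS replicate 1, where 38.4% of all genes did, and 10 in SBS replicate 3, where 34.7% did. In SBS replicate 3, 5 lay below every sham library, beside 35% of all genes. Medians above the sham mean were 2.53 and 0.43. The called genes were *mxc*, an antiviral dynamin-like GTPase, at 448 and 75.5 CPM in SBS against 3.93 to 8.66 CPM in sham (log2 fold change 5.48), *gbp1*, a guanylate-binding GTPase, at 251 and 264 CPM against 15.7 to 50.4 CPM (3.07), and *irg1l* at 88.2 and 858 CPM against 0, 0.506 and 0 CPM. Among further genes above all sham libraries were the Mx genes *mxa* (3.06, adjusted p = 0.0656) and *mxg* (1.89, adjusted p = 0.147), and *ifit12* (2.91, adjusted p = 0.0714). The gene *irg1* was at 836 CPM in SBS replicate 1 and 1.57 CPM in SBS replicate 3, against 0.990, 2.14 and 1.59 CPM in sham (adjusted p = 0.0864). The antiviral genes *isg15* and *rsad2*, chosen after their values were seen, were high in SBS replicate 1 alone. The level of *isg15* was 300.02 CPM there and 6.27 CPM in SBS replicate 3, against 20.5, 20.01 and 12.2 CPM in sham. That of *rsad2* was 81.4 CPM in SBS replicate 1 and 1.28 CPM in SBS replicate 3, against 6.55, 7.53 and 5.28 CPM in sham, so SBS replicate 3 lay below all sham libraries for both.

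**Figure D3:**
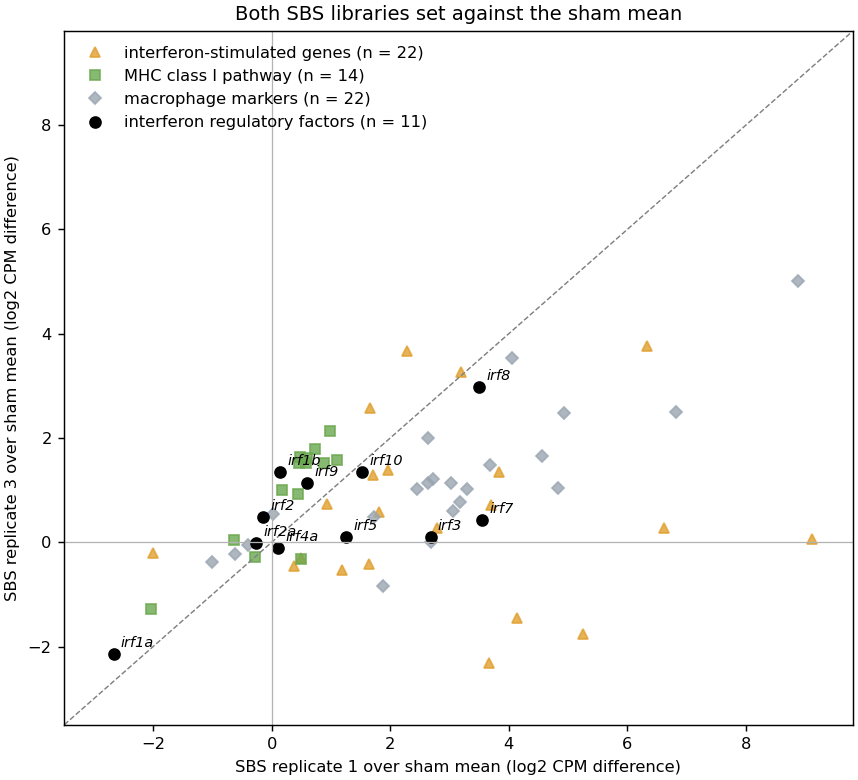
Difference from the sham mean in log2 CPM in SBS replicate 1 (horizontal) and SBS replicate 3 (vertical) for the 11 IRF genes (black circles), 22 interferon-stimulated genes (triangles), 14 MHC class I pathway genes (squares) and 22 macrophage markers (diamonds), with the line of equality dashed. Most interferon-stimulated genes fall below the line, as do irf3, irf4a, irf5, irf7, irf8 and irf10. Most MHC class I genes lie above it, as do irf1a, irf1b, irf2, irf2a and irf9.

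The most abundant member was *irf1b* (ENSDARG00000043249, chromosome 21), one of 2 zebrafish relatives of mammalian IRF1, an interferon-gamma responsive activator. It was at 240 CPM in SBS replicate 1 and 550 CPM in SBS replicate 3, against 270, 200.001 and 190 CPM in sham. SBS replicate 3 was the highest library and SBS replicate 1 lay inside the sham range. The log2 fold change was 0.84 (standard error 0.44, 95% interval -0.23 to 1.92, adjusted p = 0.259), or 1.32 without SBS replicate 1 and 0.13 without SBS replicate 3. A row named *txndc15* carries the same Ensembl identifier and the description of *irf1b*. It held 18.0 and 31.4 CPM in SBS against 43.7, 28.2 and 35.0 CPM in sham, a log2 fold change of -0.53 (adjusted p = 0.369), and was kept as a gene of its own.

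The other relative, *irf1a* (ENSDARG00000043492, chromosome 13), was the lowest member and the only one with both SBS libraries below sham. It had 4 and 10 reads in SBS replicates 1 and 3, or 0.131 and 0.194 CPM, against 103, 19 and 15 reads in sham, or 3.00, 0.534 and 0.450 CPM. Sham replicate 1 held most of the sham reads. The log2 fold change of -2.99 had a wide 95% interval, from -5.77 to -0.21 (adjusted p = 0.153 from the quasi-likelihood test, 0.0385 from DESeq2), and it was -1.56 without sham replicate 1.

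The genes *irf2* and *irf2a* encode relatives of mammalian IRF2, which competes with IRF1 at the same sites. The level of *irf2* (ENSDARG00000040465, chromosome 14, *irf2b* in RefSeq) was 48.8 and 75.3 CPM in SBS, against 68.0, 51.0 and 44.9 CPM in sham. That of *irf2a* (ENSDARG00000007387, chromosome 1) was 8.43 and 10.01 CPM in SBS, against 9.50, 11.0 and 9.78 CPM in sham. The groups overlapped for both genes. Their log2 fold changes were 0.18 (95% interval -0.61 to 0.98) and -0.13 (-0.78 to 0.52). A change of 1 log2 unit lay outside both intervals in this fit. For *irf2* the margin was small, and its value without TMM scaling was 0.99. The ratio of *irf1b* to *irf2* was not tested.

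Of 14 genes of the MHC class I pathway, which IRF1 serves in mammals, 0 were called by the quasi-likelihood test, with 6 higher at an unadjusted p under 0.05 and 1 called higher by each other tool. Their median log2 fold change was 0.92. Only 2 of the 14 were higher in SBS replicate 1 than in SBS replicate 3, beside 47.4% of all genes, with medians of 0.48 and 1.52 above the sham mean. Among genes whose groups did not overlap, those farthest above sham belong to the proteasome part of this pathway: *psme2* (1.66, adjusted p = 0.0752), *psmb8a* (1.26), *psmb12* (1.21), *psme1* (1.16) and *psmb10* (1.13). The light chain genes *b2m* and *b2ml* had -0.28 and -0.32. The class I gene *mhc1uba* ranged from 68.8 to 5175 CPM among the sham libraries alone, with 178 and 301 CPM in SBS.

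The gene *irf10* (ENSDARG00000027658, chromosome 23) was, after *irf8*, the member with the smallest unadjusted p, 0.00545. Its level was 34.6 CPM in SBS replicate 1 and 30.5 CPM in SBS replicate 3, against 8.62, 12.5 and 16.1 CPM in sham. Both SBS libraries agreed closely and lay above every sham library. The log2 fold change of 1.39 (standard error 0.32, 95% interval 0.59 to 2.19) was under the limit of 1.5, with an adjusted p of 0.0703 from the quasi-likelihood test, 0.0101 from the likelihood ratio test, 0.00375 from DESeq2 and 0.00549 from RUVg. Leaving out any library gave values from 1.19 to 1.65.

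Summed over the 11 genes, the level per length was 390 RPKM in SBS replicate 1 and 495 RPKM in SBS replicate 3, against 241, 200.4 and 192 RPKM in sham. The SBS libraries lay above all sham libraries, a ratio of means of 2.097, or 3.68 without TMM scaling. In SBS replicate 3 *irf1b* made up 59.16% of the sum and *irf8* 14.8%, whereas in SBS replicate 1 they made up 32.8% and 27.0% and *irf7* 10.9%. In sham *irf1b* made up 52.6% to 59.9%, *irf8* 2.40% to 6.33% and *irf7* 1.37% to 2.196%.

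**Figure D4:**
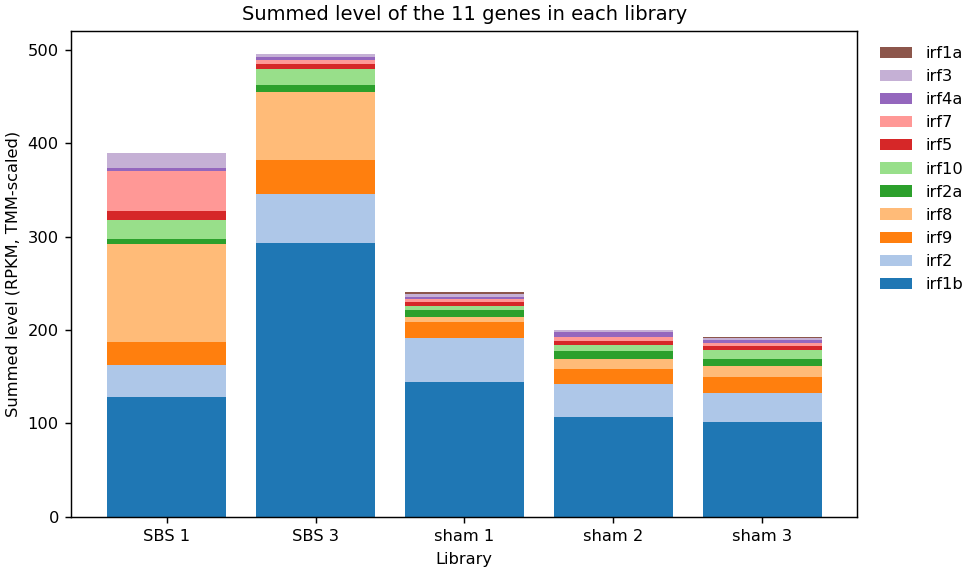
Summed level of the 11 IRF genes in RPKM in each library, stacked by gene. The bars reach 390 and 495 RPKM in SBS replicates 1 and 3 against 192 to 241 RPKM in sham, and the irf8 segment widens in both SBS bars while that of irf7 widens in SBS replicate 1.

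By mean RPKM in SBS, the order began with *irf1b* (210), *irf8* (89.1), *irf2* (43.5), *irf9* (30.5), *irf7* (23.7) and *irf10* (18.7), followed by *irf3* (9.17), *irf5* (7.31), *irf2a* (6.57), *irf4a* (3.41) and *irf1a* (0.112). In sham it was *irf1b* (117), *irf2* (38.3), *irf9* (16.5), *irf8* (9.78), *irf2a* (7.19), *irf10* (7.12), *irf5* (4.24), *irf7* (3.66), *irf4a* (3.60), *irf3* (2.47) and *irf1a* (0.918). In SBS the ranges of *irf1b*, *irf8*, *irf10*, *irf2a* and *irf4a* were apart from those of their lower neighbours, and the other ranges overlapped. In sham *irf1b*, *irf2*, *irf9*, *irf10* and *irf3* were apart from their lower neighbours. The rank of *irf8* was 2 in both SBS libraries and 5, 4 and 4 in sham replicates 1, 2 and 3. That of *irf7* was 3 in SBS replicate 1 and 7 in SBS replicate 3, against 8, 8 and 9 in sham.

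**Figure D5:**
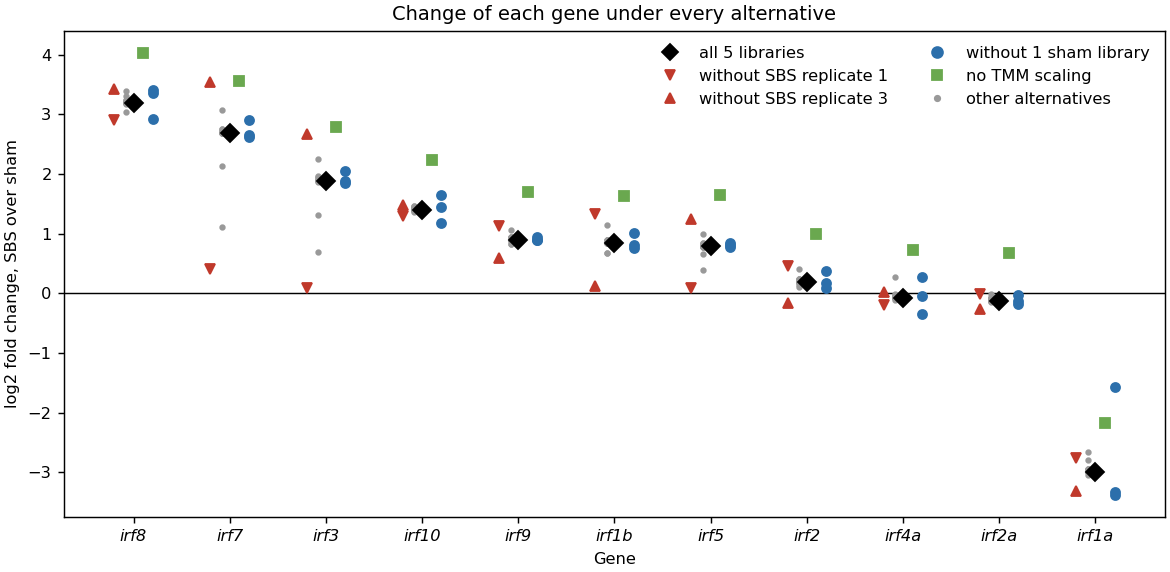
Log2 fold change of SBS over sham of the 11 IRF genes with all 5 libraries (black diamonds) and under the 17 alternatives, among them leaving out SBS replicate 1 or 3 (red triangles), leaving out a sham library (blue circles) and no TMM scaling (green squares). The red triangles are farthest apart for irf7, at 0.41 and 3.54, and stay close for irf8, at 2.91 and 3.43, and irf10, at 1.30 and 1.48.

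DNA-binding partners and IRF2-binding proteins formed a list of 20 genes, whose log2 fold changes had a median of 0.17. The quasi-likelihood test called 0 of them, with 5 higher at an unadjusted p under 0.05, and the likelihood ratio test and DESeq2 each called 3 higher and RUVg 1 higher and 1 lower. The PU.1 genes *spi1a* and *spi1b*, whose products pair with IRF8 and IRF4 in mammalian blood cells, had log2 fold changes of 2.66 (adjusted p = 0.0815) and 3.23 (0.0945). For *spi1b* the SBS libraries held 157 and 14.0 CPM against 6.87, 11.7 and 8.67 CPM in sham, a wider gap between SBS libraries than that of *irf8*. The partner gene *batf3* had a value of 1.91, the NF-κB gene *rel* 1.21 and *tcf3a* -0.76, without passing. The most abundant, *cebpb*, *cebpd* and *cebpa*, had 1.98, -1.53 and -0.04, and their groups overlapped.

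None of the 4 IRF2-binding protein genes was called by any of the 4 tools, and none had an unadjusted p under 0.05 in the quasi-likelihood test. Their log2 fold changes were 0.05 for *irf2bp1*, -0.61 for *irf2bp2a*, -0.05 for *irf2bp2b* and -0.39 for *irf2bpl*. Both SBS libraries lay below sham only for *irf2bp2a*, at 103 and 59.5 CPM against 109, 131 and 131 CPM. For *irf2bp2b* the SBS libraries lay on both sides of sham, at 122 and 35.4 CPM against 79.5, 65.8 and 98.8 CPM.

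Some of these genes overlap others in the RefSeq annotation, and whether reads were counted by strand is not given in the sources used here, so reads shared with such a neighbour cannot be told apart. All 11 IRF genes were matched there, and 5 overlap a gene: *irf1a* with *chs1*, *irf1b* with *ddx46*, *irf2a* with *tmem134*, *irf3* with *fra10ac1* and *irf7* with *phrf1*, which was not analysed here. The chitin synthase gene *chs1* was at 527 and 2154 CPM in SBS against 2703, 2487 and 2011 CPM in sham, far above *irf1a*. The gene *fra10ac1* was at 3.99 and 6.58 CPM in SBS against 2.07 to 2.16 CPM in sham, highest in SBS replicate 3 where *irf3* was not. The levels of *ddx46* were 49.6 and 59.0 CPM in SBS against 66.5 to 112 CPM in sham, and those of *tmem134* 22.9 and 24.1 CPM against 25.4 to 33.2 CPM. The *irf7* row spans 17 exons and 3290 bases, the longest of the family.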

How the data were processed

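RNA-seq counts of proximal intestine from 3 SBS and 3 sham zebrafish were deposited by the authors as raw counts per gene. Reads had been checked with FastQC, trimmed with Trimmomatic, aligned with STAR (to danRer7 in the study's methods, GRCz10 in the submitters' notes) and counted with HTSeq. The RPKM values deposited by the authors, their log2 fold changes and average log2 levels, their likelihood ratios (another unit) and their p-values from edgeR were not used. Chromosomes are as deposited. After 70 spike-in rows and 20 repeated rows were left out, 12398 genes remained and 12381 were tested.

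R 4.3.3, edgeR 4.0.16, limma 3.58.1 and DESeq2 1.42.0 were used. The quasi-likelihood design was ~group on TMM-scaled counts. It was tested on simulated counts of SBS against sham over 12342 genes, with 200 changed by 4 on the log2 scale, of which 89% were called, with 15 false calls. A change of 4 exceeds the fitted change of every IRF gene in the main fit. The simulation therefore does not tell how often smaller changes would be called. Its counts were drawn with edgeR's dispersions and no unwanted factor, so the tools' false calls on it need not carry over to these data. RUVg was recomputed without its package, with its factor taken from all but the 5000 genes with the smallest p. RPKM was recomputed from TMM-scaled counts and the deposited length. Differences from the sham mean use log2 CPM with a prior count of 0.5.

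The members and gene lists were chosen with earlier results of these data known. Genes named from a list are those called, up to 5 with the largest absolute log2 fold change whose groups do not overlap and the 3 with the highest mean CPM, except that lists of other cells than macrophages are given mainly by their counts. Nothing in the labels says that replicates came from batches, and p-values measure the spread between these samples. With 2 against 3 libraries the smallest exact two-sided permutation p is 0.2. Some genes of the family and lists stayed in every fit and are not reported here. Promoter and protein sequences were planned and are not used here. Of the other lists, exocrine pancreas (14 genes) had 0 called and a median of -1.64, with 0 at an unadjusted p under 0.05 and 0 called by the likelihood ratio test, DESeq2 or RUVg. Erythrocytes (4 genes) had 1, hbaa1, called higher.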

Additional observations from a re-analysis of the deposited data

How the results depend on the processing

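Over the 11 IRF genes and 17 alternatives, 165 of 187 values kept their direction and their side of the threshold, 12 passed only under the alternative, 4 lost the call, all of *irf8*, and 6 changed sign. Only 1 gene was called in the main fit, so most of the 165 were uncalled values that stayed uncalled. They include *irf7*, which went from 2.69 to 0.41 without SBS replicate 1, and *irf3*, from 1.89 to 0.09. The tally therefore does not measure how stable the size of a change was. Halving the even counts of SBS replicate 1 was chosen after seeing the data and left *irf8* as the single IRF call. The number of IRF genes called was 1, or 7 by library size only, 2 by the likelihood ratio test, 3 by DESeq2 and 2 with all 6 columns, and between 0 and 3 with a library left out. Of all genes 563 were called (308 higher, 255 lower), or 2293 by library size only (2095 and 198), 1931 by the likelihood ratio test, 1891 by DESeq2, 1690 by RUVg and 1936 with all 6 columns, and between 0 and 2330 with a library left out, 0 being without any of the sham replicates. DESeq2's size factors gave 311 higher and 233 lower.

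With the replicate number as a block, 0 genes and 0 IRF genes were called, against 1923 and 2 at an unadjusted p under 0.05, and *irf8* had a log2 fold change of 3.39 (adjusted p = 0.177). Replicate numbers 1 and 3 occur in both groups, and their deviations from the group means correlated at -0.08 and -0.09 across genes. With 2 SBS libraries the deviation of each is the mirror image of the other. These values therefore cannot show whether libraries with the same number were paired. The block turned *irf4a* to 0.27.

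By library size only, *irf2a* had 0.67, *irf4a* 0.72, *irf2bp2a* 0.23, *irf2bpl* 0.47 and *irf2bp2b* 0.85. Without a library, values that changed sign spanned -0.16 to 0.46 for *irf2*, -0.34 to 0.27 for *irf4a*, -1.198 to 0.59 for *irf2bp2b* and -0.29 to 0.33 for *irf2bp1*. For *irf2* the change of sign came without SBS replicate 3 (-0.16). For *irf4a* it came without SBS replicate 3 (0.028) and sham replicate 2 (0.27). For *irf2bp2b* it came without SBS replicate 3 (0.59) and sham replicate 3 (0.15), and for *irf2bp1* without SBS replicate 1 (-0.29) and sham replicate 1 (-0.035). DESeq2 size factors and its Wald test gave *irf2bp2b* 0.017 and all 6 columns 0.24, and RUVg gave *irf2bp1* -0.11. The cause was not tested.

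Without SBS replicate 1 or 3, list medians ranged from 0.38 to 0.40 for interferons and receptors, 0.49 to 0.83 for JAK-STAT genes, 0.31 to 2.38 for interferon-stimulated genes, 0.03 to 1.14 for sensors, 0.47 to 1.31 for MHC class I and -0.22 to 0.62 for partners. The summed IRF level had a ratio of 2.097, or 3.68 by library size only. Depth limits *irf1a* most, with 4 and 10 reads in SBS.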
